A study of Mus musculus with 26 samples.

Results

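The KO-labelled polymerase II loop network is the set of 168426 loops, each joining 2 anchors on 1 chromosome, that rested on at least 2 paired-end tags in the HiChIP list of the KO-labelled cells. They were chosen by that tag minimum alone, out of 489409 rows of the list (34.4%) and 632860 rows over both lists of the series. They held 656225 of the list's 977208 tags (67.2%) and used 44059 distinct anchors that covered 155 Mb. Rows just outside the minimum, with 1 tag, numbered 320983 and had a median distance of 348 kb, and rows just inside it, with 2 tags, numbered 82596 and had a median distance of 150.4 kb.

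The cells were E14, a mouse embryonic stem cell (ESC) line, in a series of 26 samples on the transcription factor KLF4, neural differentiation and 3D chromatin structure. HiChIP with an antibody to RNA polymerase II and RNA-seq were made on cultures labelled as neural progenitor cells (NPC) after 12 days of neural induction, with genotype Klf4-KO or WT and 2 replicates each. ESCs had been kept on gelatin in serum with LIF, PD0325901 (a MEK inhibitor) and CHIR99021 (a GSK3 inhibitor). The labels give neither the knockout clone nor the induction medium. Both replicates of a genotype share 1 loop list, so no spread between replicates exists for any loop value, and no loop result below carries a test. The genotype label was checked on RNA: Klf4 had 2571 and 2538 counts in the KO-labelled RNA-seq libraries and 0 in both WT-labelled ones, the opposite of the label, and samples are therefore named by label only.

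RNA polymerase II transcribes protein-coding genes and gathers at promoters and active enhancers. HiChIP ligates DNA ends that are close in the nucleus, pulls down fragments carrying the polymerase and counts read pairs (tags) between 2 enriched intervals (anchors). An anchor joined to many others is called a hub here, and its partners are the distinct anchors it is joined to. In neural stem cells such contacts often link promoters of progenitor and glial genes to distal enhancers, while in ESCs the genes of the pluripotency network are known for such contacts.

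Promoters of 4 genes at contrasting places of the network are printed first, as examples named again below. Their sequences enter no later comparison. They belong to Sulf2 (heparan sulfate endosulfatase, a narrow hub with abundant RNA) and Adora1 (adenosine A1 receptor, a broad hub with hardly any RNA). The others belong to Nes (nestin, an intermediate filament of neural progenitors) and Nanog (a homeobox factor of pluripotency with abundant RNA and no loop). Each runs 5′ to 3′ on the gene's strand, from 250 bases before to 50 bases after a RefSeq start (GRCm38.p6, the assembly of mm10); where a gene has several starts, the one at the anchor with most partners was taken. Capitals mark matches, on either strand, of 7 short motifs. They were the GC box, GGGCGG, and the TATA box, spelled TATAAA, the E-box with the letters CACGTG, and the CCAAT box, by its name. A pair of KLF-type boxes, GGGTGTGG with T or GGGCGTGG with C, and the octamer, ATGCAAAT, made up the rest. The GC boxes in Adora1 lie next to each other without sharing bases.
Sulf2, chr2:166155634-166155933, minus strand: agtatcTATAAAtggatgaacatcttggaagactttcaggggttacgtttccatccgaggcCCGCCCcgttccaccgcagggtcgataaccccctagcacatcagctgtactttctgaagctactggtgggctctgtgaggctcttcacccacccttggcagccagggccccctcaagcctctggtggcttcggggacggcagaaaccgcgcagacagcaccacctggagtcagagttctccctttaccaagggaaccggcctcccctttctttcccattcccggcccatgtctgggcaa
Adora1, chr1:134235408-134235707, minus strand: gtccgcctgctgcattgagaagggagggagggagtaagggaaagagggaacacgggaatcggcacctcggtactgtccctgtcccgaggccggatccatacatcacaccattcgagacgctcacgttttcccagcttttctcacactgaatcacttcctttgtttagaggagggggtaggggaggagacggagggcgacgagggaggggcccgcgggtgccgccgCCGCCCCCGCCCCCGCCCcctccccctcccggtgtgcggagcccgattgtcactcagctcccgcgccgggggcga
Nes, chr3:87970843-87971142, plus strand: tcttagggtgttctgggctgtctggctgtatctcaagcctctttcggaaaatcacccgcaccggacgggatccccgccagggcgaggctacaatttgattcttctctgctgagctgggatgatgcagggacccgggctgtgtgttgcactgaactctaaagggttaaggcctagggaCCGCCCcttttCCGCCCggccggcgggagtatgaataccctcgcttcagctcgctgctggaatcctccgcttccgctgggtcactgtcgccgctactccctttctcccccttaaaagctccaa
Nanog, chr6:122707239-122707538, plus strand: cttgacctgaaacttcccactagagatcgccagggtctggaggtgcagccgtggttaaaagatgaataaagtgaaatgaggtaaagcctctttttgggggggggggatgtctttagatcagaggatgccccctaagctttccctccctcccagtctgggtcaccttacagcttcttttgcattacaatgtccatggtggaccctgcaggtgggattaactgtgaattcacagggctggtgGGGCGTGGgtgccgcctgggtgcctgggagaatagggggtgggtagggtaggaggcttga
The Sulf2 window held 1 GC box and 1 TATA box, Adora1 held 3 GC boxes, Nes held 2 and Nanog held 1 KLF-type box of the form with C. Over 32851 RefSeq promoters of the same length, 35.7% held a GC box, 13.6% a TATA box, 37.4% a CCAAT box, 7.15% an E-box, 3.56% and 5.33% the KLF-type boxes with T and with C, and 1.74% the octamer. Adora1 had 66% G or C and 26 CpG pairs, against a median of 52.7% and 7 over all promoters, and Nanog had 54.3% and 4. A match describes letters only.

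The hubs also included miR-9, a microRNA of neural progenitors made from several gene copies, so its mature strands are shown with the seed (bases 2 to 8) in capitals. Both strands have the same sequence at Mir9-1, Mir9-2 and Mir9-3 in RefSeq.
mmu-miR-9-5p: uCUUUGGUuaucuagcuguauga
mmu-miR-9-3p: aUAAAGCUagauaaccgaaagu
The anchor over Mir9-1 on chromosome 3 was 46579 bases wide and had 69 partners and 627 tags. The anchor over Mir9-3 on chromosome 7 was 29410 bases wide and had 61 partners and 515 tags. The anchor at Mir9-2 on chromosome 13 had 3 partners and 24 tags, so the anchors at the copies differed widely in partners. Wider anchors had more partners in general, and the part of width in this difference was not tested. No mature microRNA was measured. Of 1005 microRNA hairpins, 396 (39.4%) lay within 2500 bases of an anchor.

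Most anchors had few partners and a small number had very many. An anchor had a median of 5 partners (quartiles 2 and 10, mean 7.65). Of all anchors, 14.1% had 1 partner, 7.28% had at least 20 and 126 (0.286%) had at least 50. The busiest 1% of anchors by tags, 441 in number, took 10.98% of all anchor tags, and the busiest 10% took 44.5%. Wider anchors had more partners: the median rose from 3 partners in 7033 anchors under 2000 bases to 28 in 868 anchors of 10 to 20 kb and 52 in 89 anchors of at least 20 kb. Across anchors the rank correlation of width and partners was 0.481, given as a description; width and signal cannot be told apart here. Chains of loops linked the anchors into 1320 separate components, of which 114 held at least 100 anchors and together 73.7% of all anchors. The component with the most anchors, 1001, spanned 20.5 Mb of chromosome 4.

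**Figure D1:**
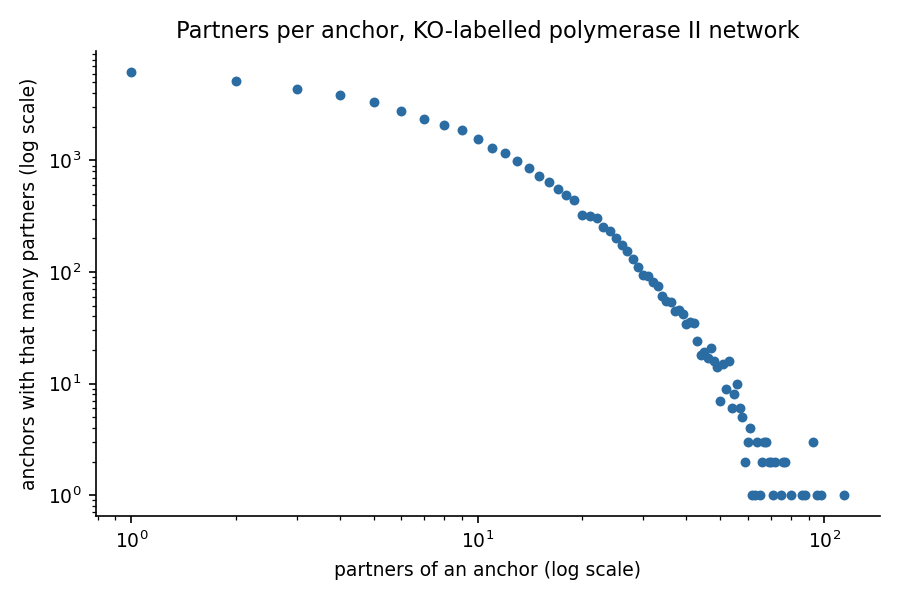
Number of anchors (vertical, log scale) with each number of partners (horizontal, log scale) in the KO-labelled network, 1 point per number of partners. The counts fall from 6217 anchors with 1 partner to 1 anchor with 114 partners.

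The busiest anchor lay at Septin9, a gene of the septin cytoskeleton, on chromosome 11 (117306955 to 117351044, 44090 bases wide), with 114 partners and 955 tags. The next was an interval inside Myh9, the heavy chain of nonmuscle myosin IIA, with 98 partners and 775 tags. The next after it, with 95 partners and 634 tags, held no start of a named gene. Its strongest partner, by 40 tags at 53.4 kb, was an anchor at 1 annotated end of Sox10, a transcription factor of neural crest and oligodendrocytes. Zmynd8, a chromatin reader, held 2 hubs with 93 and 88 partners, and Prex1, an activator of Rac GTPases, held 2 more with 80 and 71. Other hubs overlapped Elfn2 (93 partners), Col5a1, a type V collagen chain (93), Adora1 (76), Sulf2 (76), Slc35c2 (72), Aldh1l1, a folate enzyme used as an astrocyte marker (72), and Zfp469 (70). Ckb, the brain-type creatine kinase, and Trmt61a, a tRNA methyltransferase, shared an anchor with 77 partners. Rnf114 and Spata2 shared one with 70, and Rhbg, an ammonium transporter, lay at the edge of the Mir9-1 anchor. The rank limit of 20 fell between 2 anchors with 69 partners each.

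The 20 busiest anchors were wide, and 12 of them held no coding start. Of them 19 were at least 10 kb wide, against 2.17% of all anchors, and their median width was 27606 bases against 2892. A protein-coding start lay in 8 of the 20, against 28.9% of all anchors. Sulf2 was the exception in width: its anchor of 6357 bases reached 76 partners, or 12.0 partners per kb of anchor, against 1.48 to 6.96 for the other 19. Among anchors under 10 kb, a ranking chosen after seeing the data, Sulf2 was followed by an interval on the same chromosome (166352145 to 166361050) with 58 partners. Eif3b, a translation initiation factor, had 53 partners at an anchor of 3391 bases, and the shared start region of Afmid and Tk1, thymidine kinase, had 54.

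Many hubs lay close together on chromosome 2. Of the 20, 9 lay on that chromosome, and 8 of these lay within 2.52 Mb (165248347 to 167767156), at Slc35c2, Zmynd8, Sulf2, Prex1, the Rnf114 and Spata2 start and an unnamed interval. This stretch held 176 anchors, 1889 loops and 9602 tags. Its hubs were joined to each other in 24 of 28 pairs. Over all 20 hubs, 28 of the 30 pairs near enough to be listed were joined. Hubs were chosen for having many partners, so such joins follow in part from the choice. No share was computed for pairs of other wide anchors. In the WT-labelled list, which held 407150 tags in all, no anchor overlapped 8 of the 20 hubs, against 72.8% of all 44059 anchors and 58.2% of the 957 anchors at least 10 kb wide, and the busiest overlapping anchor had a median of 4 partners over the 20. The highest such value was 50 partners, at Sulf2. Loops were called in each list separately and at different depth, so these counts are descriptions.

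**Figure D2:**
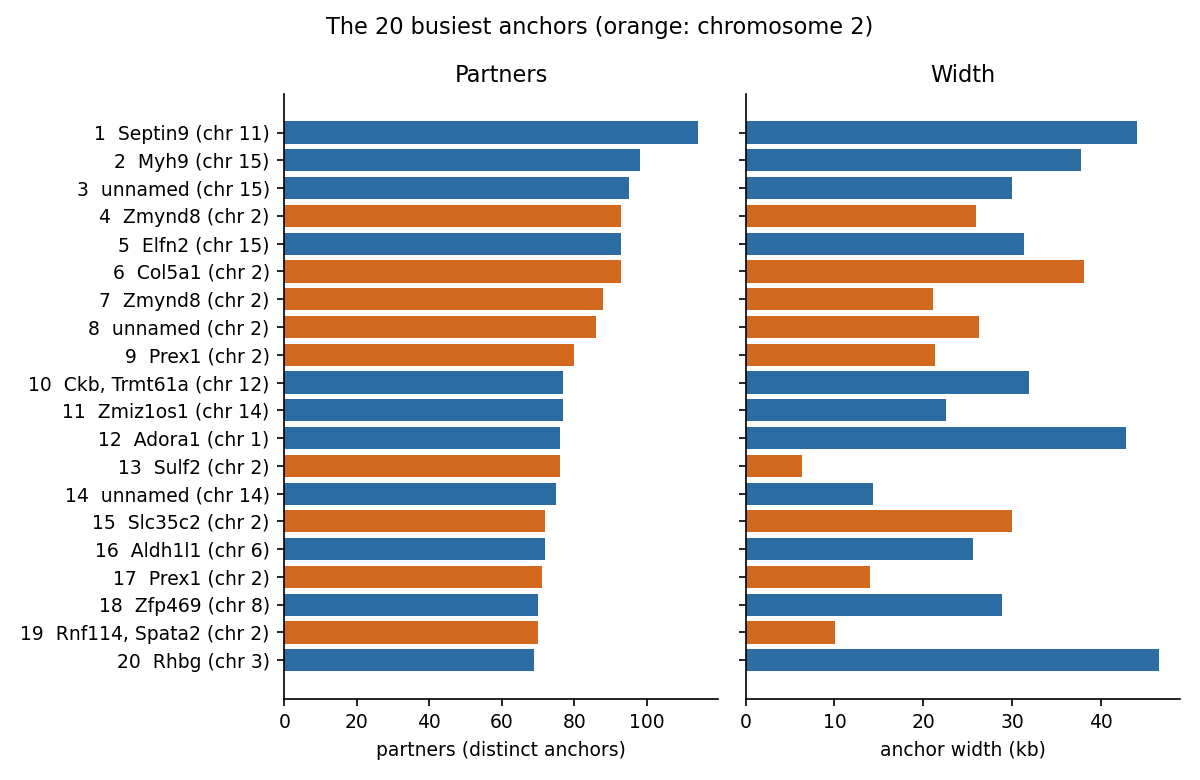
Partners (left) and width in kb (right) of the 20 busiest anchors, 1 bar per anchor, labelled by rank, named gene at a start or else overlapped, and chromosome, with chromosome 2 in orange. Partners range from 69 to 114, and the Sulf2 anchor is the narrowest bar.

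Loop strength fell steeply after the top. Loops had a median of 3 tags and a mean of 3.90, 9597 (5.70%) had at least 10 tags, 163 had at least 50 and 20 had at least 100. The strongest, with 315 tags, joined 2 neighbouring anchors at Zmynd8 whose centres were 24.96 kb apart. Loops joining anchors over Vac14, a phosphoinositide regulator, to an anchor over both Vac14 and the Mtss2 start had 192 and 119 tags. Within Mir9-3hg, the host transcript of Mir9-3, a loop had 143 tags. Malat1, a nuclear long noncoding RNA, was joined to Neat1, the scaffold RNA of paraspeckles, by 132 and 115 tags. Loops within Srebf1, a regulator of lipid synthesis, reached 119 tags, within Aldh1l1 108, within Hrh1, the histamine H1 receptor, 104 and within Bmp7, a secreted BMP ligand, 103. Myh9 held one with 124.

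Nearly all of these were links between adjacent broad intervals. Of the 20 strongest loops, 18 spanned under 50 kb, 15 had a gap of under 5 kb between their anchors and 18 had an anchor at least 10 kb wide. When anchors within 5 kb were merged into 1, only 1 of the 20 remained among the strongest. The leading loops were then 400 tags from an interval with the Cebpb start and 395 tags between Srebf1 and Tom1l2. The next had 393 tags between an interval at Malat1 and Neat1 and one at Neat1 and Frmd8. A loop within Tns1, a focal adhesion protein, had 367 tags. Malat1 and Neat1 thus stood near the top of both rankings.

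Distant strong loops were rarer. On chromosome 8, anchors of 2808 and 2926 bases joined over 338 kb with 183 tags, and the latter was joined to another over 303 kb with 152 tags. None of these anchors held a gene start, the last lay within the gene model 2610005L07Rik, and whether their sequences resemble each other was not tested. Ccnd1, the cyclin D1 gene, was joined by 37, 31 and 27 tags to intervals 227, 284 and 304 kb away, and by 58 tags to one at 167 kb. The anchor over Nes and Bcan, a brain proteoglycan, was joined to the Mir9-1 hub by 27 tags over 237 kb. The Nes start itself was joined to the same hub by 16 tags over 248 kb. The Mir9-1 hub was thus joined to Nes from 2 anchors.

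Tags per loop and the share of pairs joined both fell with distance. The median distance was 92.1 kb (quartiles 33.0 and 222 kb). Loops of 5 to 10 kb had 7.12 ± 6.09 tags (mean, SD over 10272 loops), those of 50 to 100 kb had 3.62 ± 3.12 (30385 loops) and those of 1000 to 2000 kb had 2.17 ± 0.769 (2625 loops). Of all pairs of network anchors at 5 to 10 kb, 78.5% were joined; the share was 27.8% at 50 to 100 kb, 6.12% at 200 to 500 kb and 0.178% at 1000 to 2000 kb. These shares are over anchors that already had a loop. The share of loops with at least 1 coding start rose from 35.8% at 5 to 10 kb to 69.6% at 1000 to 2000 kb. The last column of the list, whose meaning the sources used here do not state, was taken as the authors' false discovery rate. It behaved unevenly, with a median of 0.0356 in rows of 1 tag and 0.612 in rows of 2 tags, and it ran against distance: 16.8% of loops of 5 to 10 kb, 5.35% of those of 50 to 100 kb and 91.9% of those of 200 to 500 kb had a value of at most 0.01. A limit on it therefore keeps mostly long loops and would move the median distance to 305 kb.

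**Figure D3:**
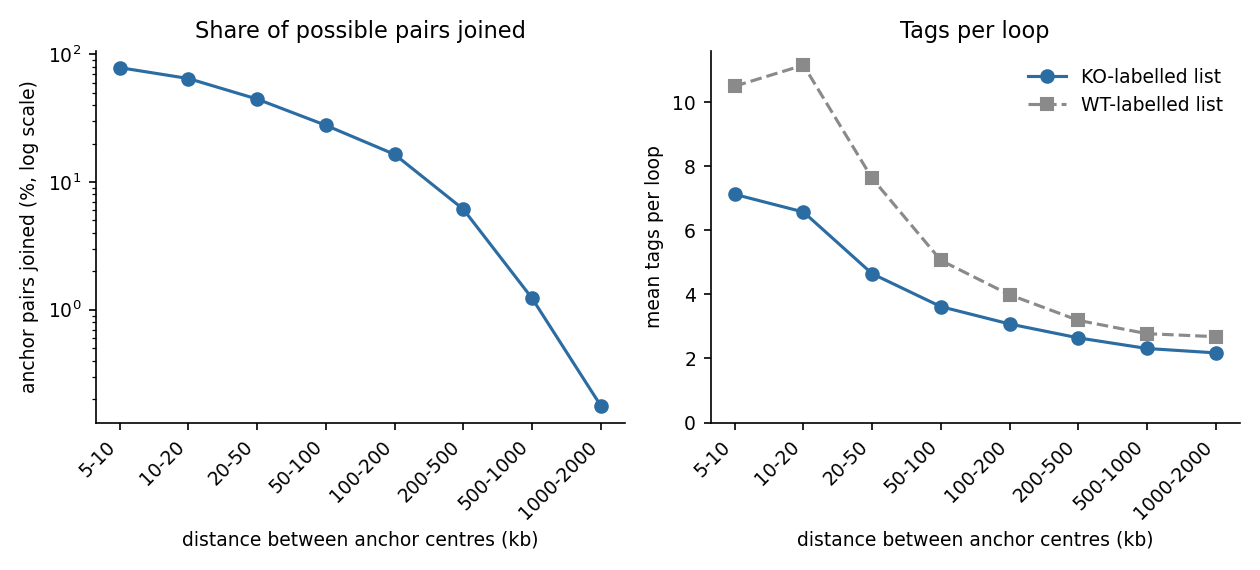
Left, percent of possible anchor pairs joined by a loop of at least 2 tags (log scale) in 8 distance classes; right, mean tags per loop in the same classes for the KO-labelled and the WT-labelled list. In the KO-labelled list both measures fall in every step, from 78.5% to 0.178% and from 7.12 to 2.17 tags.

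Loops with a coding start at both ends made up 16.2% of the network (95% Clopper-Pearson interval 16.0 to 16.4%), those with 1 such end 37.0% and those with none 46.8%. Their mean tags were 4.10, 3.82 and 3.88. Throughout, a start is a window of 2500 bases around a RefSeq start. For genes without one in the promoter table, it is a window around either annotated end. An anchor at a start may thus hold the far end of such a gene. Intervals cover counting error only.

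Chromosomes differed in loops per coding gene. Chromosome 11 had 17714 loops, or 11.01 per coding gene, and chromosome 13 had 4.70. Chromosome X had 429 loops, or 0.444 per coding gene, below every autosome, and Y had 0. The WT-labelled list was low on X as well, at 0.502 per coding gene, against 1.48 to 4.46 on the autosomes. Of 966 coding genes on X, 221 (22.9%) had a loop.

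Of 21887 coding genes, 12905 (59.0%) had a loop at their start in the KO-labelled list, and 10006 (45.7%) in the WT-labelled list. Genes with a loop had a median of 8 loops and 23 tags. The most tags were found at Dab2ip, a Ras GTPase-activating protein, with 1212 tags over 4 anchors, followed by Zmynd8 (1179), Septin9 (1112), Srebf1 (991), Ksr1, a scaffold of the MAP kinase pathway (765), and Tspan9 (758). Mtss2 had 717, Adora1 680, Sulf2 638 and 2900026A02Rik 631. Rhbg had 627, Rap1gap 620, Notch1, a receptor that maintains neural progenitors, 569, Hrh1 566 and Tex33 561. Gnai2 had 560, Cyth1 531, Ghrh, growth hormone-releasing hormone, 515, Ccnd1 497 and 7530416G11Rik 492.

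RNA was then set beside the loops, using CPM (counts scaled to a common library size) of the 2 KO-labelled libraries (31909094 and 33347088 gene counts). Because Klf4 RNA goes against the labels, loops and RNA under the label KO may not be of 1 genotype, and every pairing of the 2 below rests on the labels. In these bulk samples, fewer cells of a type and less RNA per cell cannot be told apart. A loop was more common at genes with more RNA: 9.73% of 4460 genes at 0 CPM, 38.7% of those under 1, 69.2% from 1 to 10, 88.4% from 10 to 100 and 93.8% of 2255 genes at 100 CPM or more had one. Among genes with a loop, median tags went from 13 to 32 over the same classes. Across 14751 genes with at least 10 counts, the rank correlation of tags with CPM per kb of gene span was 0.397, and with CPM 0.322. Over the 11725 of these with a loop, tags went with CPM at 0.125 and with the bases of anchor at the gene at 0.558. Span includes introns, since exon lengths were not used here.

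The same tags went with RNA of the WT-labelled libraries almost equally, at 0.319 against 0.322 on CPM. For comparison, tags of the WT-labelled list went with WT-labelled CPM at 0.559 and with KO-labelled CPM at 0.474. All of these are descriptions across genes, which are not replicates, and they share the 2 lists and 4 libraries.

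Some genes with dense loops had next to no RNA, though a smaller share than of all genes. Of 336 genes with at least 200 tags, 57 (16.96%) were under 1 CPM in both KO-labelled libraries and 10 had 0 counts in both. For comparison, 39.2% of all genes were under 1 CPM in both, so such genes were less common among those with dense loops. Tags count every loop of an anchor, so genes that share an anchor share its tags. The 57 included Adora1 (0.282 and 0.210 CPM, 680 tags), Rhbg (0.219 and 0.300 CPM), Hrh1 (0.972 and 0.450 CPM) and Faim2 (0.0940 and 0.150 CPM, 472 tags). Tex33 and 7530416G11Rik had 0 counts in both libraries, and Ghrh had 0 and 1. The 57 also held 10 histone genes of chromosome 13 (H2bc6, H1f3, H4c6, H2ac7, H2ac8, H2bc7, H2bc8, H3c4, H2ac10 and H4c8). They had 205 to 221 tags each at anchors that several of them share. Their RNA was low in the WT-labelled libraries too, from 0 to 1.43 mean CPM. How well the libraries recover RNA of these genes was not tested. The transcription factors Sox10 (343 tags), Sox8 (341 tags) and Nfix (296 tags) were under 1 CPM as well; these names were picked after their values were seen. Sox10, Rhbg and Faim2 had no start in the promoter table, so either end was used. In the WT-labelled list, 28 of the 57 (49.1%) had no loop, near the 54.3% of all coding genes without one there.

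The reverse was seen as well: 140 of the 2255 genes at 100 CPM or more had no loop. Dppa5a (1488 and 1492 CPM), Fn1, fibronectin (1465 and 1427), Trh, thyrotropin-releasing hormone (1161 and 1212), and Pgk1, a glycolysis enzyme on X (1021 and 1011), were the 4 highest by RNA, and Cdh1, E-cadherin (712 and 687), was among the next. Of the 140, 65 had rows of 1 tag, 23 lay on X and 55 had no loop in the WT-labelled list either. Among genes at 100 CPM or more, 76 were on X.

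**Figure D4:**
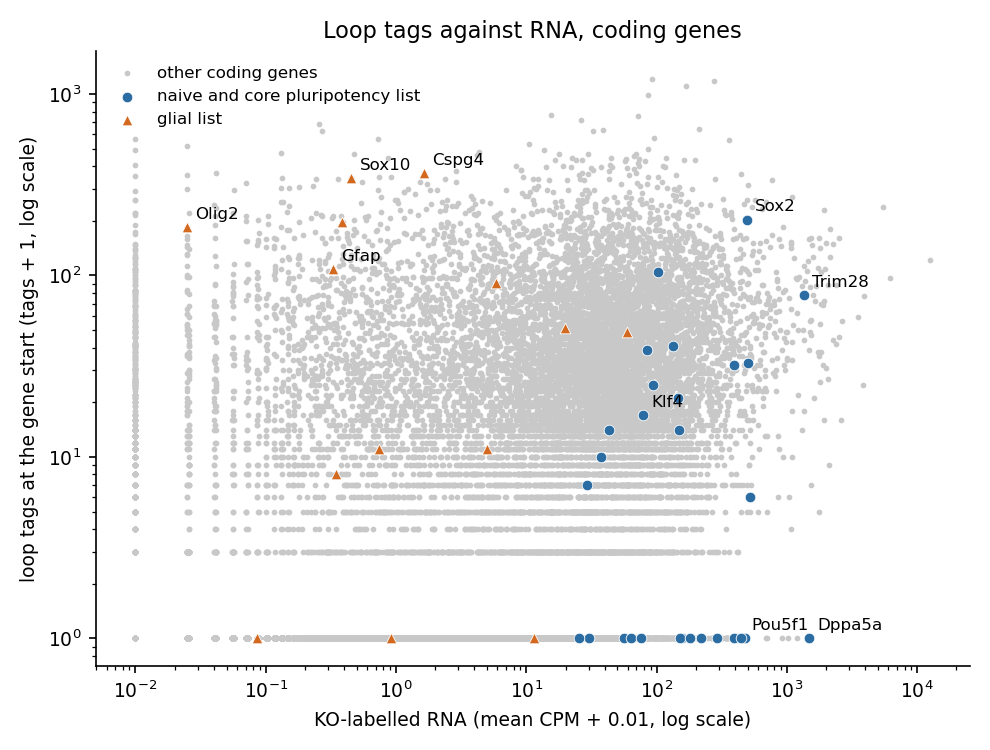
Loop tags at the gene start (vertical, tags + 1) against mean CPM of the 2 KO-labelled libraries (horizontal, CPM + 0.01), both on log scales, 1 point per coding gene, with members of the pluripotency list in blue and of the glial list in orange. Pou5f1 and Dppa5a lie on the floor of no loop at high RNA, and Olig2, Sox10 and Gfap lie high at under 1 CPM.

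The gene lists were read against the 59.0% of all coding genes with a loop. The intervals of the pluripotency, neural progenitor and glial lists all include that share. Counts in the WT-labelled list are to be read against 45.7% of all coding genes. That list held 407150 tags, against 977208 in the KO-labelled one. By RNA, the KO-labelled libraries held far more of the pluripotency list (summed 9481 and 9526 CPM) than of the neural progenitor list (1421 and 1482 CPM), so markers of both states were present. Of the progenitor genes, Sox2 was at 471 and 509 CPM, Vim at 229 and 225 CPM, Nes at 101 and 106 CPM and Zic2 at 88.2 and 88.3 CPM, while Pax6 was at 3.76 and 3.90 CPM and Fabp7 at 0.877 and 0.750 CPM. The labels do not say whether RNA-seq and HiChIP used the same cultures, and the part of this in the results below was not tested. In the list of naive and core pluripotency factors, 15 of 32 had a loop (46.9%, interval 29.1 to 65.3%), against 30 of 32 in the WT-labelled list. Their RNA was abundant, with a median of 154 CPM, and 12 of the 21 members at 100 CPM or more had no loop. Over all genes at 100 CPM or more, 140 of 2255 had no loop and 93.8% had one. The list thus had fewer loops than genes with as much RNA, although its interval includes the share of all coding genes. Pou5f1, the POU factor that defines the pluripotent state, had 461 and 463 CPM and no loop, and Nanog had 436 and 438 CPM and no loop. Zfp42 (440.4 and 446 CPM), Tdgf1, a Nodal co-receptor (469 and 481), Lin28a, an RNA binder (413 and 405), and Utf1 (392 and 386) had none either. All 17 members without a loop were without even a 1-tag row, and 16 of them had a loop in the WT-labelled list, Nanog with 515 tags and Pou5f1 with 435.

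Other pluripotency genes did have loops. Sox2, which is also a neural progenitor factor, had 33 loops and 202 tags, at 471 and 509 CPM, and its strongest partners lay 13.9 kb (35 tags) and 14.6 kb (25 tags) away. Lefty1, a Nodal inhibitor, had 104 tags and Trim28, a corepressor, 77. Esrrb, an orphan nuclear receptor, had 5 tags at 509 and 524 CPM. Klf4 had 6 loops and 16 tags at 80.6 and 76.1 CPM, with its strongest partner 53.7 kb away by 5 tags. In the primed epiblast list 11 of 16 had a loop, led by Dnmt3a, a DNA methyltransferase (123 tags), Etv4 (106) and Zic2 (51), while Otx2 had none at 183 and 181 CPM.

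Among neural progenitor genes, 23 of 30 had a loop (76.7%, interval 57.7 to 90.1%), against 15 in the WT-labelled list. The WT-labelled count lies near the 45.7% of all coding genes there. Notch1 led with 569 tags at 94.7 ± 0.408 CPM (SD, n = 2), and its strongest partner lay 34.1 kb away with 71 tags. Nes had 202 tags at 101 and 106 CPM, with 66 of them to the anchor 10.4 kb away. Hes5, a Notch target, had 128 tags at 0.219 and 0.120 CPM, and Hes1, another, had 172 tags at 37.5 and 40.03 CPM. Id1 and Id3, targets of BMP signalling, had 196 and 176 tags. Pax6, a paired-box factor of neural progenitors, had no loop.

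The glial list combined loops with little RNA. Of 14 members 11 had a loop (78.6%, interval 49.2 to 95.3%), against 2 in the WT-labelled list, with a median of 49 tags and a median RNA of 0.813 CPM. Cspg4, the NG2 proteoglycan of oligodendrocyte precursors, had 364 tags at 1.79 and 1.47 CPM. Olig1 and Olig2, factors of the oligodendrocyte lineage, had 196 and 184 tags and were joined to each other by 54 tags over 38.7 kb. Olig1 was at 0.564 and 0.180 CPM, and Olig2 at 0 and 0.0300 CPM. Gfap, the astrocyte filament, had 107 tags at 0.188 and 0.450 CPM. Of the 8 members under 1 CPM in both libraries, 6 had a loop. Over all genes the share was 9.73% at 0 CPM and 38.7% above 0 and under 1 CPM. Over the whole list, the interval includes the 59.0% of all coding genes. Slc1a3, a glutamate transporter of radial glia, had RNA as well, at 57.4 and 60.7 CPM with 48 tags, while Aqp4 and Slc1a2 had no loop.

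Fewer neuronal genes had a loop than the 59.0% of all coding genes. Of 20 neuronal genes 5 had a loop (25%, interval 8.66 to 49.1%), with at most 19 tags, at Elavl3. Stmn2 had 177 CPM in both libraries and no loop, and Dcx, Tubb3 and Neurod1 had none. For mesoderm, muscle and fibroblast genes 11 of 20 had one (55%, interval 31.5 to 76.9%). They were led by Col1a1, type I collagen (325 tags), Tbx6 (160) and Tagln (73), while Fn1 and Col1a2 (160.1 and 154 CPM) had none. Endoderm had 3 of 15 (20%, interval 4.33 to 48.1%), led by Sparc (82 tags), Apoa1 (10) and Cxcr4 (6). Trophoblast and simple epithelium had 3 of 12 (25%, interval 5.49 to 57.2%). They were Krt18 (16), Epcam (14) and Gata3 (2), with none at Cdh1 and Krt8 (216 CPM in both). Endothelial and blood genes had 6 of 12 (50%, interval 21.1 to 78.9%), led by Eng (140), Pecam1 (126) and Runx1 (41). Liver genes, a tissue not cultured here, had 2 of 10 (20%, interval 2.52 to 55.6%), Apoa2 (19) and Apob (2). The intervals of the mesoderm and endothelial lists include 59.0%, and those of the other lists here lie below it. Median RNA was 3.30 CPM for neuronal, 3.92 CPM for endoderm, 45.3 CPM for trophoblast and 0.0617 CPM for liver genes. Over all genes, 38.7% above 0 and under 1 CPM, 69.2% from 1 to 10 and 88.4% from 10 to 100 CPM had a loop.

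Hox genes, which pattern the body axis, had no loop in any of 39 members (interval 0 to 9.03%). In the WT-labelled list 16 members had one, near the 45.7% of all coding genes there. Hox RNA summed to 8.05 and 10.2 CPM, with a median of 0.0627 CPM and 10 members at 0 CPM. Over all genes, 9.73% at 0 CPM and 38.7% above 0 and under 1 CPM had a loop. Genes of general cell function stood at the other end, as genes with more RNA did in general. Of all genes, 88.4% at 10 to 100 CPM and 93.8% at 100 CPM or more had a loop. Median RNA was 1105 CPM for ribosomal protein genes, 171 for cell cycle, 495 for glycolysis and 35.2 for immediate-early and stress genes. All 78 cytosolic ribosomal protein genes had a loop, led by Rpl19 (333 tags), Rpl23a (260) and Fau (254). All 32 cell cycle genes did, led by Ccnd1 (497), Ccnd3 (248) and Mcm2 (222), as did all 20 immediate-early and stress genes, led by Dusp1 (284), Jund (260) and Fosl1 (239). Glycolysis had 19 of 20, led by Aldoa (160), Eno1 (104) and Gapdh (91), and Pgk1 was the member without. The range of lists thus ran from the Hox genes to the genes of ribosomes, cell cycle and early response.

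Subunits of the machinery itself were mostly looped, near the shares of genes with as much RNA. Of all genes, 88.4% at 10 to 100 CPM and 93.8% at 100 CPM or more had a loop. Median RNA was 47.8 CPM for polymerase II and Mediator and 205 CPM for CTCF, cohesin and looping factors. For the KLF and Sp family it was 35.1 CPM. In the polymerase II and Mediator list 30 of 33 had a loop, led by Med25 (125 tags), Polr2a, the catalytic subunit of the polymerase (114), and Polr2e (110). Of the CTCF, cohesin and looping factors 17 of 19 had one, led by Maz (214), Smc3 (110) and Zfp143 (104), and Nipbl, the cohesin loader, had none at 182 and 185 CPM. In the KLF and Sp family 23 of 26 had one, led by Klf16 (231 tags), Klf10 (208) and Sp2 (156). Klf4 stood low in it, with its 16 tags.

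**Figure D5:**
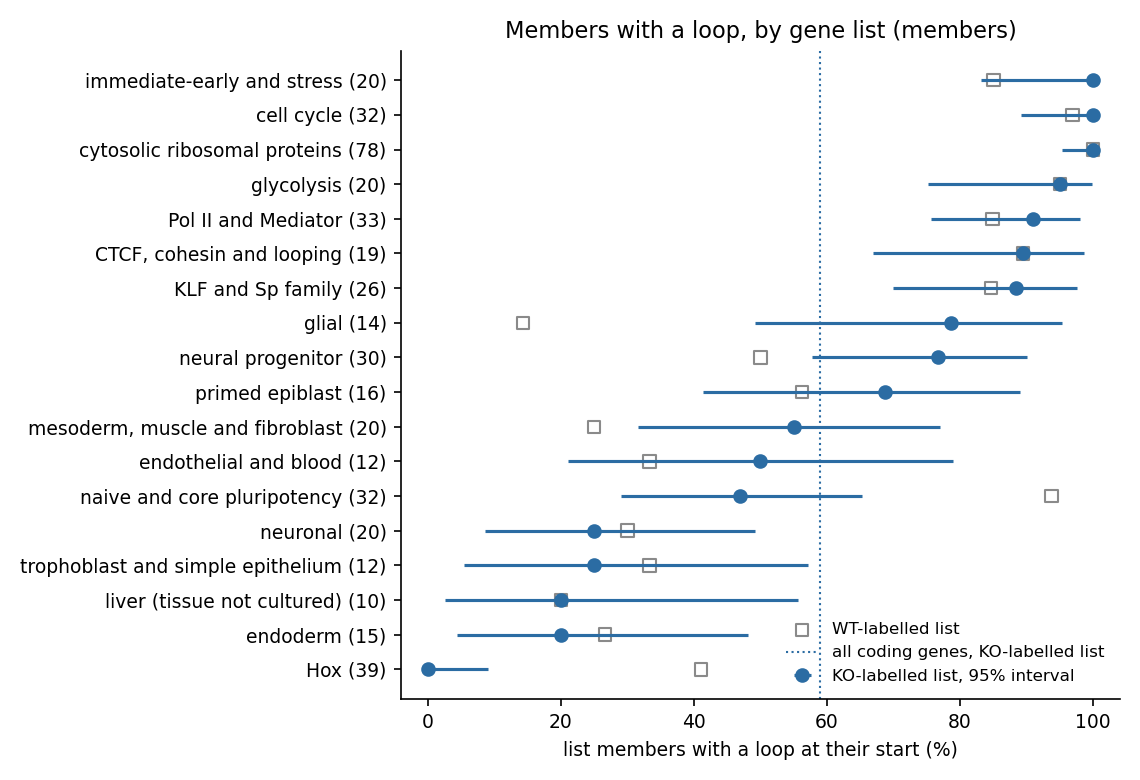
Percent of members with a loop at their start in 18 gene lists, with list size in brackets; filled points and bars are the KO-labelled list with 95% Clopper-Pearson intervals, open squares the WT-labelled list, and the dotted line is the 59.0% of all coding genes. The pluripotency and Hox lists have lower points than squares, and the glial and neural progenitor lists have higher ones. The line belongs to the KO-labelled list. The squares compare with 45.7% of all coding genes, a share that is not drawn.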

How the data were processed

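The deposited HiChIP files are headerless loop lists, 1 per genotype, with the anchor positions, the tag count and a last column from 0 to 1 for each loop, all the authors' values. That last column of the deposited lists was taken as the authors' q-value (false discovery rate) from its range, as the sources used here do not describe it. In addition, the names of the lists hold the word mango, and both replicates of a genotype point to 1 list. For RNA-seq the authors deposited raw read counts by gene symbol. Per the submitters' processing notes, mm10 was the build and HISAT2 2.1.0, featureCounts 2.0.3, DESeq2 1.18.1, Bowtie2 2.4.4, MACS2 2.2.7.1 and HiC-Pro 2.11.1 were among the tools; the sources used here do not give the loop caller, its settings or a strand setting, so reads of overlapping genes cannot be told apart.

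Loops with at least 2 tags were kept with no limit on the q-value, and distances were taken between anchor centres. Gene starts came from RefSeq promoters (17492 of 21887 coding genes) or either gene end (4395), and 21242 genes matched a count row, 571 by an older symbol. CPM used gene counts only: 31909094 and 33347088 in KO-labelled, 37703866 and 29835774 in WT-labelled libraries. Rows that name no gene stayed out (reads without a feature were 6.05% to 8.07% of column totals). No column belonged to other samples. Coordinates are 1-based. Python 3.11.15 with pandas 2.3.3, scipy 1.17.1 and networkx 3.6.1, and for scaling alternatives edgeR 4.0.16 and DESeq2 1.42.0 in R 4.3.3, were used, and the calculations were tested on simulated loops. Alternatives were tag, q-value and window limits, merged anchors, other rankings and scalings, and each RNA replicate left out.

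Named genes were Klf4, Sox2, Pou5f1, Nanog, Nes and Pax6, genes at the 20 busiest anchors and 20 strongest loops, the 20 genes with most tags, and in each list the 3 members with most tags and up to 2 without a loop at 100 CPM or more. Others, such as Sox8, Nfix, the histone genes, Olig1, Gfap, Hes5, Slc1a3 and the genes of narrow or merged anchors, were named after their values were seen. Members and the 18 lists were chosen with earlier results of these data known. The label NPC was checked on the marker lists given in the report. The ChIP-seq samples were not used here. With no replicate spread for loops, no test was made. Some results that these rules give are left out here.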

Additional observations from a re-analysis of the deposited data

How the results depend on the processing

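Of 156 settings run, 99 left a value within its limits and 57 moved it. The limits differed by result. For the rank correlation with RNA the limit was the SD between the 2 KO-labelled libraries, 0.000718, so very small shifts counted as moved. Values of tags divided by anchor widths, in another unit, were counted as moved without a check. The count of 57 therefore says little on stability. Of 90 settings of list shares, 86 were within limits. Those limits were the 95% Clopper-Pearson intervals of lists of 10 to 78 genes. They are wide, and each setting reused the same members or part of them. The primed epiblast share counted as within limits although it went from 68.8% to 43.8% with the q-value limit. Staying within limits therefore says little on how stable these shares are. Depth and anchor calling limit what absence means: a gene without a loop has no listed row of at least 2 tags, and both replicates share 1 list. No paired analysis was possible because each genotype has 1 loop list for both replicates and no test between groups was made.

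With 1 tag allowed, the network had 489409 loops, a median of 16 partners, 2.84% of anchors with 1 partner, at most 174 partners and a median distance of 230.2 kb, with mean tags of 6.29 at 5 to 10 kb and 1.06 at 1000 to 2000 kb. With at least 3 tags, these were 85830 loops, 3 partners, 25.4% and 54.4 kb, and with at least 5 tags 2 partners, 41.1%, at most 54 partners and 30.2 kb. A q-value of at most 0.01 left 57463 loops, a median of 2 partners, 36.8% of anchors with 1 partner, a median distance of 305 kb and 18.0 mean tags at 5 to 10 kb. Merging anchors within 5 kb gave a median of 4 partners, 16.7% with 1 partner and at most 73 partners. Tags divided by the product of anchor widths in kb, another unit, were 0.589 at 5 to 10 kb and 0.108 at 1000 to 2000 kb.

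Of the 20 busiest anchors, 13 remained when ranked by summed tags, 1 by partners per kb, 12 with at least 5 tags, 12 with merged anchors and 1 among anchors under 10 kb (added after seeing the data). Of the 20 strongest loops, 1 remained with merged anchors and 13 at 20 kb or more.

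The rank correlation of tags and RNA was 0.625 without a count filter, 0.322 on CPM, 0.254 among genes with a loop, 0.415 and 0.373 with windows of 1000 and 5000 bases, 0.385 with at least 3 tags, 0.383 with WT-labelled libraries, 0.305 per kb of anchor among genes with a loop (added after seeing the data) and 0.396 to 0.397 without 1 replicate. Genes at 0 CPM had a loop in 7.51% with at least 3 tags, 6.68% with the q-value limit, 8.12% and 11.7% with the 2 windows and 11.4% to 11.6% without 1 replicate. Genes at 100 CPM or more had one in 86.5% with at least 3 tags, 81.5% with the q-value limit and 93.8% to 93.9% without 1 replicate.

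In all, 2 lists changed side against the share of all genes under the same setting: primed epiblast, above it otherwise, was at 43.8% against 46.6% with the q-value limit, and mesoderm, muscle and fibroblast, below it otherwise, was at 61.5% against 58.6% with starts from the promoter table only. Under the q-value limit, the share with a loop was 69.7% for polymerase II and Mediator and 93.6% for ribosomal proteins, against 46.6% of all genes. It was 87.5% for cell cycle genes with at least 3 tags, against 50.6%. With starts from the promoter table only (added after seeing the data), it was 100% for CTCF, cohesin and looping factors. Loops with coding starts at both ends were 14.5% and 21.0% with windows of 1000 and 5000 bases, 17.5% with at least 3 tags and 19.4% with the q-value limit. The cause of these moves was not tested beyond the fewer rows, wider windows or fewer genes that each setting takes.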
